A study of Mus musculus with 29 samples.

Results

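The genes described here are the replication-dependent histone genes of the mouse, followed through the neural differentiation of embryonic stem cells. A gene was taken when a transcript cluster of the array carried a single gene symbol of the form used for the Hist1 to Hist4 clusters or its current equivalent (H1f1 to H1f6, H2ac, H2bc, H3c and H4c with a number). Where a gene had more than 1 cluster, the one with the higher mean was taken. This gave 29 genes of the 30141 genes with a cluster of 1 symbol, and only Hist1h4b had a second cluster. The set held 5 linker histone H1 genes, 10 genes of H2A, 9 of H2B, 3 of H3 and 2 of H4. The rule set no threshold on values, but the set had been noted for rises with LY3201 in the wild-type arrays, so those values are given below as a description with no test. Another 39 clusters listed several histone genes each and are described apart.

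Core histones H2A, H2B, H3 and H4 form the octamer around which DNA is wrapped, and linker histone H1 binds where the DNA enters and leaves it. Replication-dependent histone genes are transcribed mainly in S phase, when new chromatin has to be packed, and most of their mRNAs end in a stem-loop in place of a poly(A) tail. That stem-loop is bound by Slbp, and transcription of the clustered genes depends on the cyclin E-Cdk2 target Npat. Histone mRNA is degraded when DNA replication ends, so cells that leave the cell cycle are known to lose most of it.

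RNA was measured in 29 samples, 1 Clariom D (MTA 1.0) array each, which fell into 14 groups. Embryonic stem cells (mESC) were untreated and either wild type (WT) or BERKO, the name of a line without estrogen receptor beta (ERβ, gene Esr2). Neural precursor cells (NPC), midbrain neural precursors (mDPC) and cells labelled mature midbrain neurons (MN) were each WT or BERKO and either untreated or given LY3201, a selective ERβ agonist, at 0.5 nM. Untreated NPC and mDPC had received the vehicle DMSO, and treatment there lasted 4 days; its length in MN was not given. All cultures were feeder-free; mESC were kept with LIF, NPC with FGFb, mDPC with FGFb, FGF8b, Shh and ascorbic acid, and MN with ascorbic acid. Each group held 2 arrays, except untreated MN labelled BERKO with 3, and the study calls them biological replicates without naming separate lines. The titles of both mESC BERKO arrays share a number, and so do those of both LY3201-treated WT NPC arrays, so either pair may come from 1 culture. No label says whether a genotype stands for a single line, and p-values measure the spread between these samples only.

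Esr2 did not bear out the genotype labels: it read 3.21 to 3.47 in the 14 WT arrays and 3.80 to 4.46 in the 15 arrays labelled BERKO, on the deposited log2 scale. No array put it above the 95th percentile of its own 5222 negative controls, which lay between 6.63 and 7.66 and serves here as the level of detection. BERKO is therefore used as the name on the label. The stem cell marker Nanog read 16.24 to 16.59 in mESC and 4.04 to 5.52 at later stages. The dopamine markers Th (3.19 to 3.57) and Slc6a3 (3.38 to 3.84) were below detection in all 29 arrays, so the midbrain dopamine identity of mDPC and MN was not seen here, and the astrocyte marker Gfap read 18.78 to 19.00 in MN. The mean of 8 neuron markers ranged from 7.56 to 9.77 among the 4 WT MN arrays and from 7.03 to 7.32 among the 5 MN arrays labelled BERKO.

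For 25 of the 29 genes the RefSeq promoter table of GRCm38.p6 held a sequence, from 250 bases before to 50 bases after the start. Motifs were searched on both strands. The TATA box was searched as TATAAA. The box known to bind the factor NF-Y was searched as CCAAT. The octamer known from H2B promoters was searched as ATTTGCAT. The element known from H1 promoters was searched as AAACACA. Of the 25 promoters 24 held CCAAT (96%, against 37.4% of all 32851 promoters of that length) and TATAAA in 14 (56%, against 13.6%). AAACACA was in 4 of 5 H1 promoters (80%, against 7.18% of all promoters), and ATTTGCAT in 5 of 7 H2B promoters (71.4%, against 1.74%). Neither was confined to that type. ATTTGCAT was also in 3 of 9 H2A promoters (33.3%), and AAACACA in 2 of 7 H2B (28.6%) and 1 of 9 H2A promoters (11.1%). Of the 2 H4 promoters, Hist1h4a held 1 match to TATAAA, after the start, and 1 to CCAAT, and Hist1h4b held none of the 4 motifs. The 2 H3 promoters held CCAAT alone. These matches are descriptions of the letters, not of sites in use. The following 4 promoters are printed because the genes behaved differently: an H1 gene that rose on differentiation, an H1 gene that fell, an H2A gene with the deepest fall out of mESC, and an H2B gene with an octamer. Capitals mark the matches to the 4 motifs on either strand, and no matches overlapped.
Hist1h1c (now H1f2; chr13:23738557-23738856, plus strand): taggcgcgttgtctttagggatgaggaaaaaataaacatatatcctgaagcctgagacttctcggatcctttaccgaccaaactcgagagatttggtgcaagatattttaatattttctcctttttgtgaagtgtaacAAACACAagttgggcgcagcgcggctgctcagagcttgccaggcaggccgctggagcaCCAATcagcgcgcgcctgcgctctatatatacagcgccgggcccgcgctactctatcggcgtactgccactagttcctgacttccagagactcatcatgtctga
Hist1h1b (now H1f5; chr13:21780576-21780875, minus strand): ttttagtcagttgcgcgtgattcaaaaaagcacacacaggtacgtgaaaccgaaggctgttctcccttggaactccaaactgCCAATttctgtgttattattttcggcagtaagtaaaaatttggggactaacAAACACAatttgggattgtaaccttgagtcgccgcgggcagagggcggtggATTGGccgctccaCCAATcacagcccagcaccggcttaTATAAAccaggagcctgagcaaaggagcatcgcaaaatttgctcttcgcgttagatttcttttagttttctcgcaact
Hist1h2aa (now H2ac1; chr13:23934187-23934486, plus strand): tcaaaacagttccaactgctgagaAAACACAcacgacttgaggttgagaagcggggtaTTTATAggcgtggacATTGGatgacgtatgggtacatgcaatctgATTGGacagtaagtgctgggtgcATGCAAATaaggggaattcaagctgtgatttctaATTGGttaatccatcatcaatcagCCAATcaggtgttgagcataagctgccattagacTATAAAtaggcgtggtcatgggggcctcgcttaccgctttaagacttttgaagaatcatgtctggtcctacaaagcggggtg
Hist2h2bb (now H2bc18; chr3:96269450-96269749, plus strand): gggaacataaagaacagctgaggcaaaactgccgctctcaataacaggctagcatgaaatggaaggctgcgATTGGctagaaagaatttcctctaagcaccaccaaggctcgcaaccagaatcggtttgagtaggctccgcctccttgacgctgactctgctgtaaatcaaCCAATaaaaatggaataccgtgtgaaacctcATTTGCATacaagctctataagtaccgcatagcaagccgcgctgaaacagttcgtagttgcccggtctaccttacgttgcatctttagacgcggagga
The H1 element began 112 bases before the start in Hist1h1c and 117 bases before it in Hist1h1b. Hist1h1b had TATAAA 28 bases before the start, while Hist1h1c had no match to these 6 letters. In Hist2h2bb the octamer began 48 bases before the start.

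Levels differed widely within a histone type. Hist1h2aj (now H2ac14, annotated as a pseudogene) read 12.67 to 19.21 and Hist1h2af (now H2ac10) 11.47 to 18.12, while Hist1h2ap (now H2ac24), the lowest H2A gene, read 2.36 to 4.39. Only Hist1h2aj, Hist1h2af and H2ac20 exceeded detection in every array, 16 genes did so in at least 1 array, and 13 never did. A level here belongs to a probe set and is not compared between genes. H2A genes are close to identical in their coding parts, so RNA of other H2A genes may contribute to a cluster, and with no probe sequences used here their shares cannot be told apart. A gene was tested when its mean over all 29 arrays exceeded 3.63, the mean of the array medians, which kept 26 of the 29 genes and 18659 genes in all. Hist1h1t (the testis H1), Hist1h2ah and Hist1h2ap were left out by this filter.

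**Figure D1:**
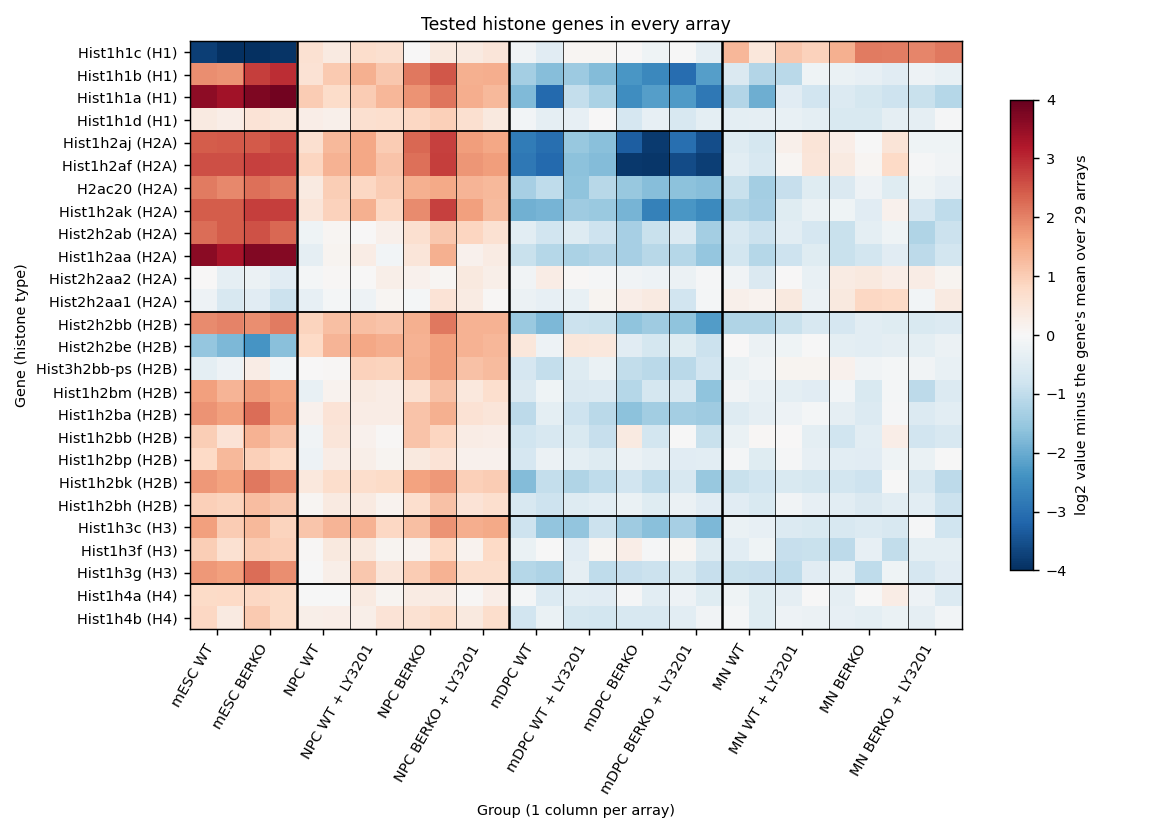
The colour gives the deposited log2 value of each of the 26 tested histone genes in each array, minus that gene's mean over the 29 arrays; columns are arrays in their groups, thick lines part the stages and horizontal lines the histone types. Most rows are red in mESC and NPC and blue in mDPC, while Hist1h1c and Hist2h2be are blue in mESC.

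From mESC to NPC most histone genes fell, but Hist1h1c and Hist2h2be rose steeply. In this and the later comparisons each stage is the mean of its untreated and LY3201 group means (in mESC, of the untreated group). The LY3201-treated arrays therefore carry equal weight with the untreated ones in each later stage, and mESC has no treated arrays to set against them. A gene is called when limma's adjusted p was below 0.05. In WT, 17 of 26 genes fell and 3 rose, against 37.8% of all tested genes that fell and 34.7% that rose, with a median of -0.81 over the histone genes and -0.03 over all genes. In BERKO, 16 fell and 5 rose, against 39.6% and 33.3%, with a median of -0.55. Of the calls in WT, 6 concerned genes detected at both stages, 8 at 1 stage and 6 at neither. In BERKO these were 10, 5 and 6. Here and below, a gene counts as detected at a stage when at least 1 array of that genotype exceeded detection. This is a lenient rule: in BERKO NPC it took 14 of the 29 genes, and 9 exceeded detection in all arrays.

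Hist1h1c encodes linker histone H1.2. It read 6.70 and 6.97 in WT mESC and 6.51 and 6.82 in BERKO mESC, below detection, and 10.73 to 11.43 over the 8 NPC arrays. No NPC array came near the mESC arrays. The rise was 4.47 ± 0.21 (SE) in WT (limma, adjusted p = 1.7e-13) and 4.37 ± 0.21 in BERKO (adjusted p = 2.5e-13), which against the detection level is at least 13.9-fold in WT and at least 11.6-fold in BERKO. The other H1 genes moved otherwise. Hist1h1a (H1.1, now H1f1) went from 9.19 to 9.69 over the 4 mESC arrays to 6.57 to 7.15 in WT NPC with changes of -2.46 ± 0.27 in WT and -2.12 ± 0.27 in BERKO. Hist1h1b (H1.5) fell by 0.79 ± 0.24 in WT and by 0.98 ± 0.24 in BERKO. Hist1h1d (H1.3, now H1f3), never above detection, was 0.14 ± 0.12 higher in WT NPC and 0.20 ± 0.12 higher in BERKO NPC, and neither passed.

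Among the H2A genes the deepest fall was that of Hist1h2aa, which encodes the testis form of H2A. It read 9.24 and 9.58 in WT mESC, 9.62 and 9.65 in BERKO mESC, and 5.61 to 7.39 over the NPC arrays, of which 1 untreated BERKO array was the highest. The fall was 3.47 ± 0.22 in WT (limma, adjusted p = 2.5e-11) and 3.07 ± 0.22 in BERKO (adjusted p = 1.7e-10), at least 4.22-fold in WT, where NPC was below detection. Its divergent neighbour Hist1h2ba, the testis form of H2B, fell by 1.40 ± 0.18 in WT and by 1.03 ± 0.18 in BERKO. The promoter windows of this pair share 220 bases on opposite strands, including most of the Hist1h2aa sequence printed above. Of 9 such divergent histone pairs in the table, this and the pair of Hist1h2ah and Hist1h2bk were the only ones with both genes in the set. Hist1h2ah was not tested.

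On chromosome 3, Hist2h2ab (now H2ac21), H2ac20 and Hist2h2be (now H2bc21) follow each other in the RefSeq gene order with no gene between them, yet differed in direction. Hist2h2ab read 8.35 to 8.65 in mESC and 5.94 to 6.30 in WT NPC, and fell by 2.31 ± 0.22 in WT and by 1.63 ± 0.22 in BERKO. H2ac20 fell by 1.20 ± 0.18 in WT and by 0.74 ± 0.18 in BERKO. Hist2h2be, an H2B gene known to be expressed also outside S phase, read 4.28 to 5.07 in mESC and 7.41 to 8.27 in NPC. It rose by 2.96 ± 0.19 in WT (limma, adjusted p = 2.6e-11) and by 3.44 ± 0.19 in BERKO (adjusted p = 2.5e-12), at least 1.32-fold and 1.48-fold against detection. The third gene that rose in both genotypes was Hist3h2bb-ps (now H2bu1-ps, a transcribed pseudogene on chromosome 11), by 0.78 ± 0.13 in WT and 1.29 ± 0.13 in BERKO; in WT its bound against detection was under 1. With the untreated groups alone the WT rise was 0.34 and the BERKO rise 1.43. Hist2h2aa1 (now H2ac18) and Hist2h2aa2 (now H2ac19), below detection in every array, rose in BERKO by 0.86 ± 0.23 and 0.55 ± 0.14. In WT they were 0.30 ± 0.23 and 0.22 ± 0.14 higher and did not pass.

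Between NPC and mDPC every tested histone gene had a lower mean, in both genotypes, where 47.9% of all genes did in WT and 47.6% in BERKO. In WT 23 of 26 genes fell and none rose, where 23.5% of all genes fell and 22.8% rose, and the median was -1.04 against 0.01 over all genes. In BERKO 25 fell and none rose, where 25.7% of all genes fell and 25.4% rose, and the median was -1.85. Of the called falls, 6 in WT and 4 in BERKO were between detected levels, 3 and 10 crossed detection, and 14 and 11 lay below detection at both stages.

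Hist1h2af had the largest fall. It read 16.21 to 16.91 in WT NPC and 12.25 to 13.71 in WT mDPC, and 17.03 to 18.12 in BERKO NPC and 11.47 to 11.77 in BERKO mDPC. The stages were far apart in both genotypes, with BERKO above WT in NPC and below it in mDPC. It fell by 3.57 ± 0.16 in WT (limma, adjusted p = 4.9e-13) and by 5.88 ± 0.16 in BERKO (adjusted p = 1.5e-16). Hist1h2aj fell by 3.38 ± 0.17 and 5.48 ± 0.17, and Hist1h2ak (now H2ac15) by 2.59 ± 0.20 and 4.24 ± 0.20. In BERKO, Hist1h2ak ended below detection, so its fall was at least 12.5-fold.

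Of the other types, Hist2h2bb fell by 2.36 ± 0.14 in WT and 3.29 ± 0.14 in BERKO. Hist1h1b fell by 2.59 ± 0.20 and 4.41 ± 0.20, and Hist1h1a by 2.78 ± 0.22 and 4.12 ± 0.22, from 6.57 to 7.96 in NPC to 2.72 to 4.89 in mDPC. Both were below detection in mDPC, so the falls are bounded only as at least 1.92-fold in WT and 3.65-fold in BERKO for Hist1h1b and at least 1.26-fold in BERKO for Hist1h1a, which was below detection in WT NPC too. Among the H3 genes, Hist1h3c (now H3c3) fell by 2.39 ± 0.21 and 3.05 ± 0.21 and Hist1h3g (now H3c8) by 1.38 ± 0.19 and 1.78 ± 0.19, while Hist1h3f (now H3c7) fell by 0.51 ± 0.19 in BERKO and did not pass in WT (-0.39 ± 0.19). Both H4 genes fell: Hist1h4a (now H4c1) by 0.48 ± 0.14 and 0.53 ± 0.14, and Hist1h4b (now H4c2) by 0.93 ± 0.13 and 1.07 ± 0.13, all below detection. Hist1h1c lost little, 0.69 ± 0.17 in WT and 0.44 ± 0.17 in BERKO, and remained at 10.27 to 10.82 over the 8 mDPC arrays.

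The difference of this step between genotypes was tested in the same model. In 14 of 26 histone genes the fall was larger in BERKO and in none was it smaller, where 9.93% and 8.56% of all genes were called in these directions. Of the 14, H2ac20, Hist1h2af and Hist1h2aj were detected at both stages in both genotypes, 9 in only some of these, and 2 in none, so that for 11 genes the size of the difference rests in part on values below detection. Hist1h2af differed by -2.30 ± 0.22 (limma, adjusted p = 3.4e-07), Hist1h2aj by -2.10 ± 0.24 (adjusted p = 2.7e-06) and Hist1h1b, below detection in mDPC, by -1.82 ± 0.28 (adjusted p = 8.5e-05). By type, 3 of 4 H1, 6 of 8 H2A and 5 of 9 H2B genes were called, and none of the 3 H3 or 2 H4 genes.

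**Figure D2:**
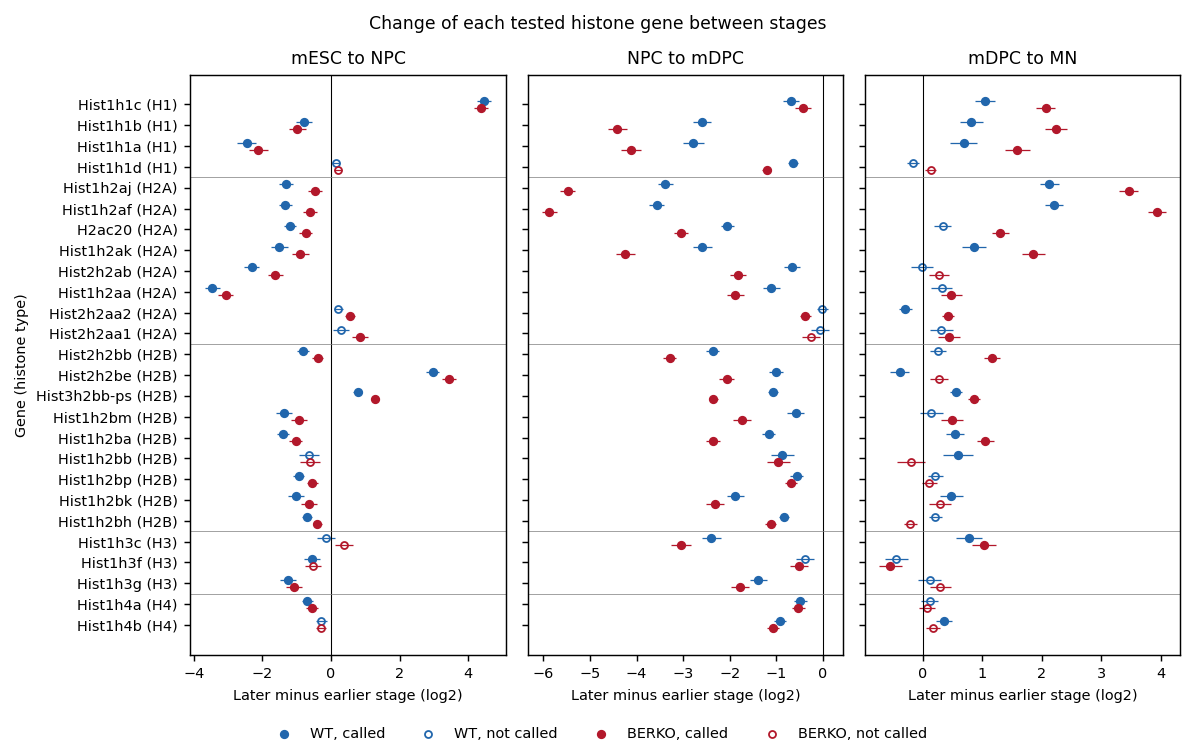
Points give the change of each tested histone gene between consecutive stages (later minus earlier, log2) in WT (blue) and BERKO (red), bars the SE of the model, and filled points the calls at an adjusted p below 0.05. Between NPC and mDPC all points lie below 0, from -5.88 to -0.01, and between mESC and NPC Hist1h1c and Hist2h2be stand at 2.96 to 4.47.

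From mDPC to MN part of the set came back up. In WT 12 genes rose and 2 fell, where 24.1% of all genes rose and 36.6% fell; in BERKO 15 rose and 1 fell, where 24.6% rose and 42.2% fell. Medians were 0.33 in WT and 0.46 in BERKO, against -0.10 and -0.15 over all genes. Centring the arrays on their negative controls moved the median of all genes to 0.09 in WT and 0.01 in BERKO, and then 18 genes rose in WT and 21 in BERKO with none falling. Of the calls, 4 in either genotype were between detected levels, and 9 in WT and 8 in BERKO lay below detection at both stages.

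Hist1h2af read 14.70 to 15.84 in WT MN and 15.22 to 16.16 in BERKO MN, above every mDPC array and below every NPC array. It rose by 2.21 ± 0.16 in WT (limma, adjusted p = 2.9e-10) and by 3.94 ± 0.15 in BERKO (adjusted p = 1.5e-14). Hist1h2aj rose by 2.13 ± 0.17 and 3.47 ± 0.16. Hist1h1c read 11.17 to 12.05 in WT MN and 12.14 to 12.83 in BERKO MN, after rises of 1.05 ± 0.17 and 2.07 ± 0.16. Its BERKO MN arrays lay above every NPC array, while those of WT MN overlapped WT NPC (11.09 to 11.43). MN was not tested against NPC. The falls were those of Hist2h2aa2 (by 0.29 ± 0.11) and Hist2h2be (by 0.38 ± 0.16) in WT and of Hist1h3f (by 0.54 ± 0.19) in BERKO. The difference between genotypes was called in 10 genes, each with the higher change in BERKO, against 12.4% of all genes in that direction and 11% in the other. Of these, 2 (Hist2h2aa2 and Hist2h2be) had fallen in WT, and 4 of the 10 were detected at both stages in both genotypes. It was largest for Hist1h2af (1.73 ± 0.22; limma, adjusted p = 6.2e-06) and Hist1h1b (1.42 ± 0.27; adjusted p = 0.00061). For the step from mESC to NPC, limma called no histone gene different between genotypes, where 7.93% of all genes were higher in BERKO and 5.54% lower. Both later differences share the mDPC arrays, so they are not independent of each other. Each step difference also equals the genotype difference at its later stage minus that at its earlier stage. The genotype differences given next are therefore not separate evidence.

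**Figure D3:**
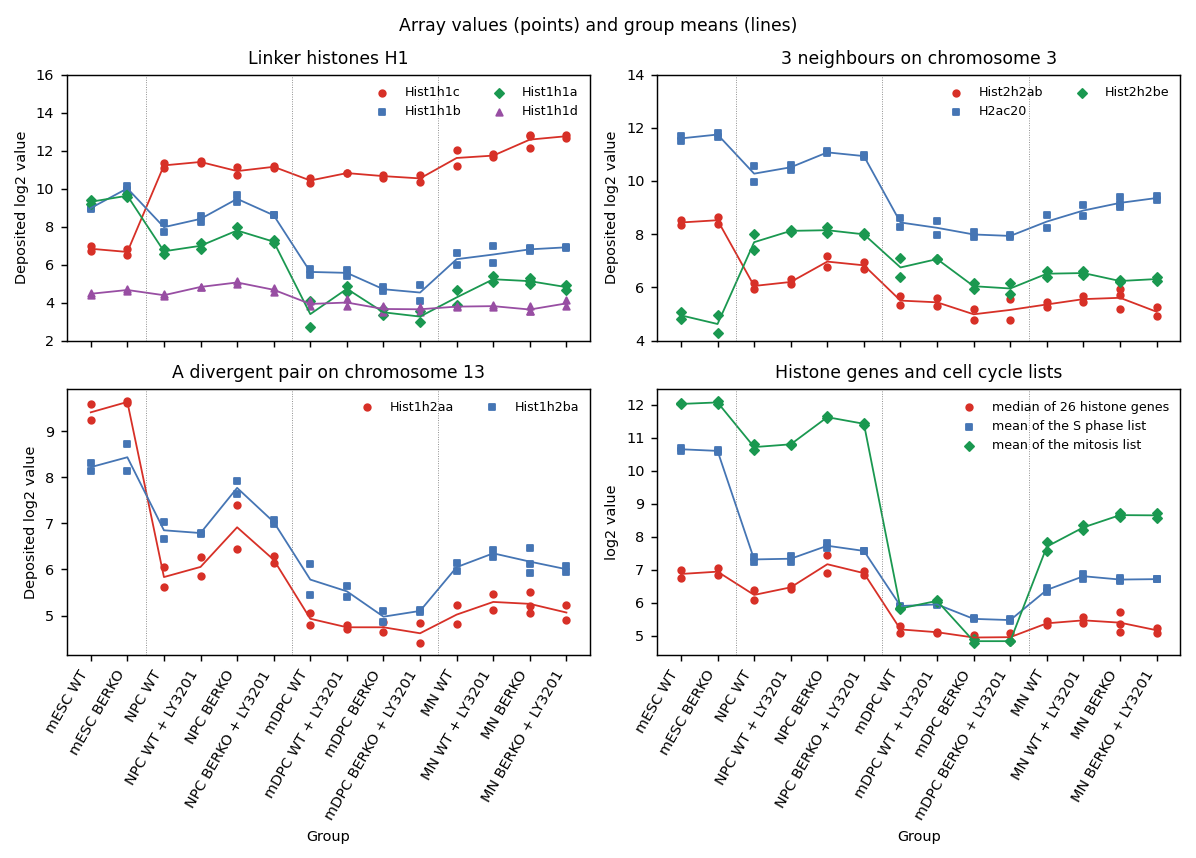
Points are array values and lines join group means, on the deposited log2 scale, for the tested H1 genes, for 3 neighbours on chromosome 3, for the divergent pair Hist1h2aa and Hist1h2ba, and, in the last panel, for the median of the 26 histone genes beside the mean of the S phase and mitosis lists; dotted lines part the stages. The median of the histone genes and both lists are lowest in mDPC labelled BERKO, at 4.84 to 5.08, 5.44 to 5.53 and 4.78 to 4.90.

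Between genotypes, the set was higher in BERKO NPC and lower in BERKO mDPC. In NPC 14 of 26 genes were higher and none lower, where 11.8% of all genes were higher and 8.81% lower, with a median of 0.52 against 0.01 over all genes. The median was 0.82 between the untreated groups (25 of 26 genes above 0) and 0.22 between the LY3201 groups (20 of 26). For these splits the share of all genes above 0 was not counted. Rises with LY3201 in WT chose the genes, so the difference between these medians was not tested. Of these 14 genes, 7 were detected in both genotypes, 4 in 1 and 3 in neither. Hist3h2bb-ps read 6.61, 6.62, 7.50 and 7.48 in WT (untreated, then LY3201) and 7.77 to 8.22 in BERKO, with no overlap. It was higher by 0.91 ± 0.10 (limma, adjusted p = 1.6e-06). Hist1h2ak was higher by 0.98 ± 0.20, Hist1h2aj by 0.93 ± 0.17, Hist1h2af by 0.86 ± 0.16 and Hist1h1b by 0.84 ± 0.20. The count fell to 9 without untreated WT replicate 1 or without untreated BERKO replicate 2.

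Within mDPC 11 genes were lower in BERKO and none higher, where 12.9% of all genes were lower and 14.1% higher, with a median of -0.32. Between the untreated groups the median was -0.20 and between the LY3201 groups -0.32. Of these, 2 were detected in both genotypes, 2 in WT alone and 7 in neither. Hist1h2af differed by -1.44 ± 0.16 (limma, adjusted p = 6.2e-07) and Hist1h2aj by -1.17 ± 0.17 (adjusted p = 2.2e-05). Hist1h1b differed by -0.97 ± 0.20 and Hist2h2be by -0.90 ± 0.16. With the untreated groups alone only 4 genes were called lower, and Hist1h1a and Hist2h2bb, called lower at -0.68 ± 0.22 and -0.47 ± 0.14, were then 0.10 and 0.12 higher. Centring on the negative controls gave 7 lower and 1 higher. The count was 7 with the 4 mDPC groups fitted alone, and 7 without untreated WT replicate 1, untreated BERKO replicate 1 or LY3201-treated BERKO replicate 2.

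In MN 4 genes were higher in BERKO and none lower (15.4% of the 26), where 17.4% of all genes were higher and 15% lower. They were Hist1h1c (0.99 ± 0.16; limma, adjusted p = 9.8e-05), H2ac20 (0.59 ± 0.14), Hist2h2aa2 (0.52 ± 0.11, below detection) and Hist2h2bb (0.44 ± 0.13). With the untreated groups alone 8 genes were called higher. The median was 0.28 between the untreated groups (18 of 26 genes above 0) and -0.20 between the LY3201 groups (11 of 26). Here too the share of all genes above 0 was not counted for the splits. As in NPC, the WT arrays behind both medians are those that chose the genes, and their difference was not tested. Hist1h2ak differed by 1.12 between the untreated groups and by -0.46 between the treated ones. In mESC the only call was Hist1h1b, at 8.95 and 9.0 in WT and 9.91 and 10.11 in BERKO, a difference of 1.03 ± 0.28 (limma, adjusted p = 0.037), where 1.86% of all genes were higher and 2.81% lower. This call was lost with no filter, with the arrays that share a title number averaged, and without any of 3 of the 4 mESC arrays.

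**Figure D4:**
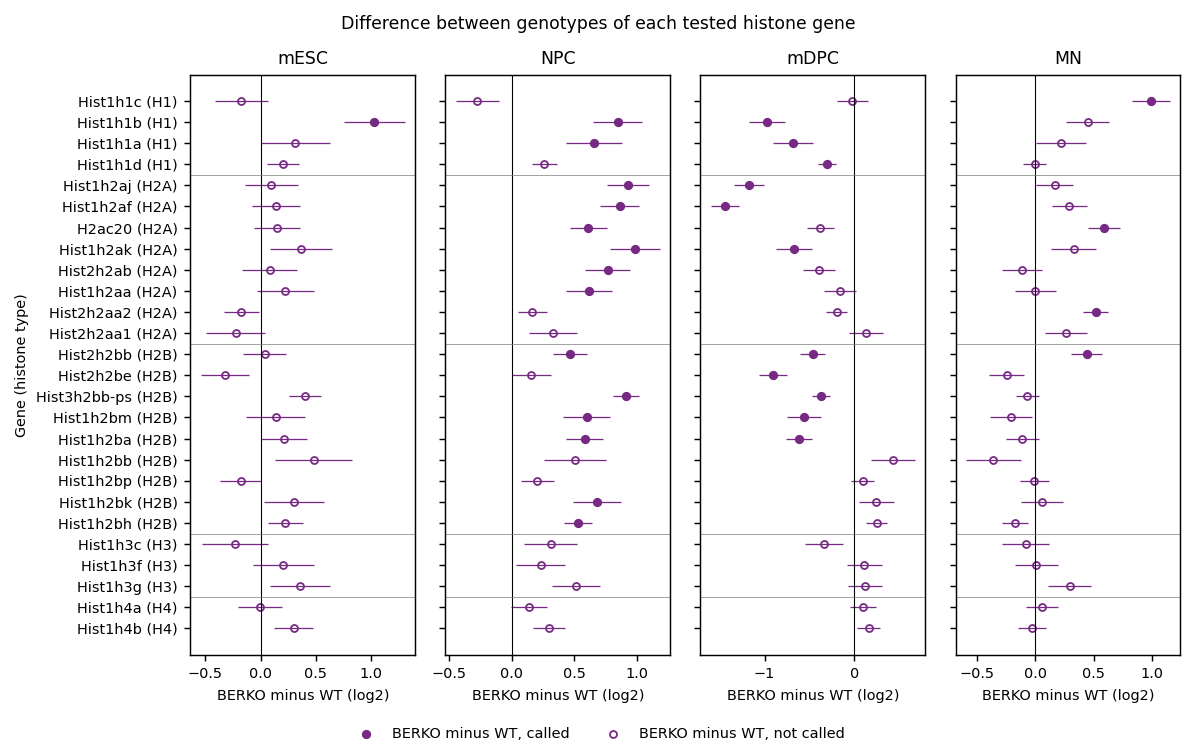
Points give the BERKO minus WT difference (log2) of each tested histone gene at each stage, bars the SE of the model, and filled points the calls. In NPC 25 of 26 points lie above 0 (52.4% of all genes do), and in mDPC 17 lie below (50% of all genes do).

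LY3201 in BERKO arrays, which the choice of genes did not use, gave no called histone gene at any stage. In NPC limma called no gene of the 18659 either (0%). At an unadjusted p under 0.05, 8 histone genes were lower and none higher, where 7.48% of all genes were lower and 1.73% higher. The median was -0.33 against -0.04 over all genes, 23 of 26 genes lay below 0 where 61.5% of all genes did, and in 17 both treated arrays lay below both untreated ones, where 31% of all genes did. Hist1h1b read 9.27 and 9.65 untreated and 8.59 and 8.60 with LY3201, a difference of -0.87 ± 0.28 (limma, adjusted p = 0.33). Hist1h2aj read 18.80 and 19.21 untreated and 18.16 and 18.03 treated (-0.90 ± 0.24). In the same comparison all 19 mitosis genes (median -0.20) and 25 of 28 S phase genes (median -0.19) lay below 0, none called; their part in the histone values was not tested. For comparison, simulated data put the share of genes recovered in this comparison at 44% for a change of 0.5 and 90% for a change of 1. Those data held 50 changed genes at each size, whereas limma called no gene in the measured arrays. The shares may therefore be too high for the histone genes here.

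For mDPC labelled BERKO the median was -0.10, and 2 histone genes were lower and none higher at an unadjusted p under 0.05, where 4.05% and 4.58% of all genes were; limma called 0.075% of all genes lower and 0.107% higher. In MN labelled BERKO the median was -0.17, 5 genes were lower and 1 higher at an unadjusted p under 0.05, where 9.43% and 2.65% of all genes were, and limma called 0.429% lower and 0.0643% higher. Hist1h2ak, at 8.48 to 9.09 untreated and 7.89 and 8.26 treated, differed there by -0.70 ± 0.26.

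The WT values with LY3201 are a description only. In NPC 23 of 26 genes were above 0 (60.9% of all genes were), the median was 0.20 against 0.04 over all genes, and 9 genes were higher and none lower without overlap, where 29.3% and 13.6% of all genes were. Hist3h2bb-ps, with the largest difference, read 6.61 and 6.62 untreated and 7.50 and 7.48 treated, and Hist1h3g 4.20 and 4.46 against 5.32 and 4.70. The share of histone genes higher without overlap (34.6%) was near that of all genes. The median was 0.04 without untreated replicate 1.

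In WT mDPC the median was 0.04 against 0.06 over all genes, with 13 genes above 0 (64.9% of all genes were) and 13 below, and 9 were higher and 1 lower without overlap, where 35.9% and 13.2% of all genes were. Leaving out any 1 array moved the median to between 0.09 and 0.24, highest without LY3201-treated replicate 1, so its value is not settled by these arrays. The set was uneven. Hist1h1a read 4.07 and 2.72 untreated and 4.89 and 4.56 treated, Hist1h2aj 13.69 and 13.48 against 14.98 and 14.81, and Hist1h2af 12.51 and 12.25 against 13.71 and 13.61. Hist2h2bb followed with 7.05 and 6.75 against 7.68 and 7.66, while the other H2B, H3 and H4 genes differed by -0.25 to 0.50.

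WT MN had a median of 0.19 against 0.03 over all genes, 21 of 26 genes were above 0 (58% of all genes were), and 9 genes were higher and 3 lower without overlap, where 28.3% and 13.8% of all genes were. Hist1h1a (0.96), Hist1h2aj (0.95), Hist1h2ak (0.88) and Hist1h2af (0.82) had the largest differences, and Hist1h3f (-0.61) the lowest. The median was 0.08 without untreated replicate 2. In WT MN the mean of the S phase list ranged from 6.34 to 6.89 and that of the mitosis list from 7.56 to 8.36. The treated arrays were higher in both. All 8 neuron markers had lower means with LY3201 (median -0.59, down to -1.24). The mean of these markers read 7.785 and 9.773 untreated and 7.555 and 8.762 treated, so replicates lay far apart and the groups overlapped. The part of these lists in the histone values was not tested.

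Side by side, 20 of 26 histone genes in NPC were above 0 in WT and below 0 in BERKO with LY3201, 8 in mDPC and 14 in MN. In 6 genes at NPC (Hist1h1b, Hist1h1d, Hist1h2bk, Hist1h3g, Hist1h4a and Hist3h2bb-ps) and 4 at MN (Hist1h1a, Hist1h2af, Hist1h2aj and Hist1h2ak) the treated arrays lay above the untreated ones in WT and below them in BERKO, without overlap. Of these genes, Hist1h1d, Hist1h3g and Hist1h4a were never above detection. Hist1h2bk in NPC and Hist1h1a in MN were below it too, and so was Hist3h2bb-ps in untreated WT NPC. Over all tested genes, 40.6% were above 0 in WT and below 0 in BERKO in NPC, 31.5% in mDPC and 35.5% in MN. Without overlap these shares were 11.5% in NPC, 6.09% in mDPC, where no histone gene did so, and 5.29% in MN. Because WT values chose the genes, the difference between genotypes was not tested.

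**Figure D5:**
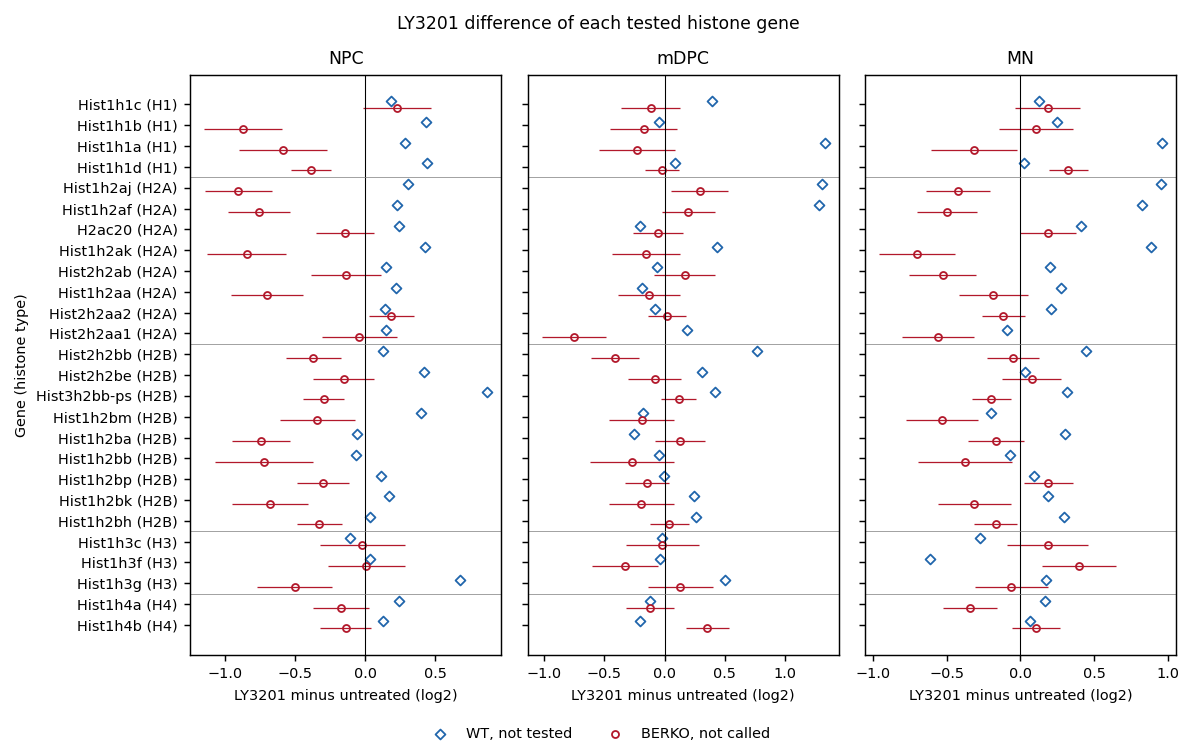
Points give LY3201 minus untreated (log2) for each tested histone gene in WT (blue diamonds, not tested) and BERKO (red circles with the SE of the model). In NPC 23 of 26 WT points lie above 0 and 23 of 26 BERKO points below 0, and no BERKO point was called.

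The 39 clusters that list several histone genes, 9 of H2A, 9 of H2B, 7 of H3, 11 of H4 and 3 mixed, hold more clusters of H3 and H4. Their RNA cannot be assigned to 1 gene, and they were not tested. Their mean levels ran from 3.08 to 16.42. Detection was exceeded by 11 of them in every array and by 26 in at least 1. For H3 these were 1 and 4 of 7, for H4 3 and 9 of 11, and no mixed cluster exceeded it. Between NPC and mDPC 35 of 39 had lower means in WT and 38 in BERKO, where 47.9% and 47.6% of all tested genes did. Medians were -1.45 and -2.04 for H4, -0.54 and -1.69 for H3, -1.44 and -2.28 for H2B and -1.09 and -1.41 for H2A. In NPC 38 of 39 were higher in BERKO than in WT (median 0.48), and in mDPC 35 were lower (median -0.38). Of all tested genes 52.4% were higher in NPC and 50% lower in mDPC. From mESC to NPC the types parted: the median of H2B was 0.31 in WT and 0.91 in BERKO, while those of H2A, H3 and H4 were -0.80, -0.90 and -0.30 in WT and -0.37, -0.32 and -0.22 in BERKO. With LY3201 in BERKO NPC 38 of 39 were lower (median -0.42), and in WT NPC 31 were higher (median 0.14). Of all tested genes 61.5% were lower in BERKO NPC and 60.9% higher in WT NPC. In mDPC 34 of 39 were higher in WT (median 0.31), where 64.9% of all tested genes were. This was unlike the single genes there, with 10 of 11 H4 clusters above 0 where both single H4 genes were below. In BERKO mDPC 20 were lower (median -0.01, against -0.009 over all tested genes). In MN 30 were higher in WT (median 0.31), where 58% of all tested genes were. In BERKO MN 26 were lower (median -0.20, against -0.041 over all tested genes).

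Genes that make and process histone mRNA mostly fell from mESC to NPC. They moved less uniformly from NPC to mDPC, where Npat was among those that rose. Slbp, which binds the stem-loop, fell by 1.67 ± 0.08 from mESC to NPC in WT and by 1.79 ± 0.08 in BERKO, and by 0.30 ± 0.06 and 0.34 ± 0.06 from NPC to mDPC. It read 4.96 to 7.29, below detection throughout, and its difference between genotypes did not pass at any stage (0.02 ± 0.06 in mDPC). Npat, the coactivator of histone transcription, fell by 1.05 ± 0.07 and 1.29 ± 0.07 from mESC to NPC but rose by 0.25 ± 0.06 in WT and 0.61 ± 0.06 in BERKO from NPC to mDPC, where the histone genes fell. In NPC it was lower in BERKO by 0.28 ± 0.06. Of the 20 tested genes for histone transcription and mRNA processing, 16 fell and 1 rose from mESC to NPC in WT. Of all genes, 37.8% fell and 34.7% rose there. From NPC to mDPC in WT 9 fell, 2 rose and 9 did not pass, where 23.5% of all genes fell and 22.8% rose. In BERKO 12 fell and 1 rose at that step, where 25.7% and 25.4% of all genes did. Between genotypes in mDPC 6 were lower in BERKO and none higher, where 12.9% and 14.1% of all genes were. Cyclin E2 (Ccne2), of the kinase that acts on Npat, fell by 1.16 in WT and 2.21 in BERKO from NPC to mDPC.

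Chaperones, which carry histones to DNA, gave 12 falls and 2 rises among 16 tested genes from mESC to NPC in WT. Of all genes, 37.8% fell and 34.7% rose there. From NPC to mDPC in WT 11 chaperones fell and 2 rose, where 23.5% and 22.8% of all genes did. The H3-H4 chaperone Asf1b fell by 2.20 in WT and 3.27 in BERKO at the second step, was higher in BERKO NPC by 0.57 and lower in BERKO mDPC by 0.50; in mDPC it read 4.35 to 5.60, below detection, so these sizes rest in part on background values. Among 8 replication-independent variants, all 8 fell from NPC to mDPC in both genotypes, where 23.5% of all genes fell in WT and 25.7% in BERKO. H2ax, which marks DNA breaks when phosphorylated and is itself made largely in S phase, changed by -3.46 in WT and -4.95 in BERKO, Cenpa, the H3 of centromeres, by -2.44 and -3.17, and H2az1 by -2.41 and -2.70. From mESC to NPC they divided: H2az2 rose by 1.63 in WT and H2az1 fell by 1.51.

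Cell cycle genes moved with the set at several steps. All 28 tested S phase genes fell from mESC to NPC in WT (27 of 28 in BERKO), 27 fell from NPC to mDPC in both genotypes, and 24 in WT and 25 in BERKO rose from mDPC to MN. All 19 tested mitosis genes fell from NPC to mDPC and rose from mDPC to MN in both genotypes. Of all genes, 37.8% in WT and 39.6% in BERKO fell from mESC to NPC. From NPC to mDPC 23.5% and 25.7% fell, and from mDPC to MN 24.1% and 24.6% rose. Between genotypes 19 of 28 S phase genes were higher and 1 lower in BERKO NPC, and 16 were lower in BERKO mDPC. Of the mitosis genes 19 were higher in NPC, 17 lower in mDPC and 19 higher in MN. Over all genes, 11.8% were higher and 8.81% lower in BERKO NPC, 12.9% lower in mDPC and 17.4% higher in MN. The mean of the S phase list in mDPC was 5.89 to 5.96 in WT and 5.44 to 5.53 in BERKO. That of the mitosis list was 5.83 to 6.08 and 4.78 to 4.90. These means lie under the lowest detection level of any array (6.63). Sizes of changes that involve mDPC may therefore rest in part on background values, and detection was not counted over these lists. Mki67, a marker of cycling cells, read 14.44 to 16.12 in NPC, 7.83 to 8.52 in WT mDPC, and 5.05 to 5.18 in BERKO mDPC, below detection there. Pcna, the replication clamp, was higher in BERKO NPC by 0.39 ± 0.07 and lower in BERKO mDPC by 0.47 ± 0.07. From mESC to NPC 16 of the 19 mitosis genes fell in WT and 2 rose (median -1.36), and in BERKO 13 fell and 6 rose. Mki67 had the highest value of that list in WT, a rise of 1.39 ± 0.17, and Pcna fell by 2.18 ± 0.08. In a culture, fewer cycling cells and less histone mRNA per cell cannot be told apart, and the part of the cycle in the histone values was not tested.

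Other cells' markers also moved with genotype. All 8 mesenchyme markers were lower in BERKO NPC, where their mean was 5.62 to 5.87 against 8.32 to 8.40 in WT, and all 8 were lower in BERKO MN, at 4.25 to 4.57 against 7.04 to 7.75; in mDPC 3 were lower. In mDPC, 4 of 8 neuron markers and 3 of 6 neural precursor markers were also lower in BERKO, while 4 of 8 astrocyte markers (1 lower) and 3 of 7 oligodendrocyte markers were higher. All 8 neuron markers were lower in BERKO MN. Of all genes, 8.81% were lower in BERKO NPC, 12.9% in mDPC and 15% in MN, and 14.1% were higher in mDPC. The part of these markers' cells in the histone differences was not tested.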

How the data were processed

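RNA of 29 samples was measured on Clariom D arrays from 150 ng of total RNA each, per the labels' protocols, with a random-primed kit (GeneChip WT Plus). The deposited log2 values were made by the authors with SST-RMA in Affymetrix Expression Console 1.4, per the labels, and were used as given; this transformation is known to widen the range, so folds are on that scale. The submitters' processing notes further list RMA and Transcriptome Analysis Console. The genome build of the clusters is not given in the sources used here.

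Of 72688 entries 65956 were transcript clusters, 30604 with 1 symbol. Genes were named from the platform annotation, and current symbols, neighbours and promoters come from RefSeq tables of GRCm38.p6; all 29 histone genes matched. limma 3.58.1 in R 4.3.3 fitted 1 mean per group to all arrays (15 residual and 3.25 prior degrees of freedom), with Benjamini-Hochberg adjustment over 18659 genes, 2-sided. Every adjusted p is from limma. Values after ± are its standard errors. The number of arrays limits the precision. Tables and figures were made with Python 3.11.15, pandas 2.3.3 and matplotlib 3.10.9.

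The histone genes and gene lists were chosen with earlier results of these data known. Named genes are the tested H1 genes, in each other type the 3 highest and the lowest, those outside the Hist1 and Hist2 clusters, and in each tested comparison the 2 largest called rises and falls without overlap of the groups, and, of the other lists, Slbp, Npat, Mki67, Pcna and up to 4 called genes with the largest change; others were named after their values were seen. Bounds ("at least") set the lower side to each array's 95th percentile of the negative controls where it lay under it. The fit was tested on simulated data with 50 genes changed at each size. Alternatives were other filters, normalizations, priors, clusters and sample sets, and each array left out in turn.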

Additional observations from a re-analysis of the deposited data

Results flagged for a closer look

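Steps that differed between genotypes were called in the following histone genes, given as the change in BERKO minus the change in WT (log2). For NPC to mDPC these were Hist1h2af (-2.30), Hist1h2aj (-2.10), Hist1h1b (-1.82), Hist1h2ak (-1.65), Hist1h1a (-1.34), Hist3h2bb-ps (-1.28), Hist1h2ba (-1.20), Hist1h2bm (-1.16), Hist2h2ab (-1.16), Hist2h2be (-1.06), H2ac20 (-0.99), Hist2h2bb (-0.93), Hist1h2aa (-0.78) and Hist1h1d (-0.57). For mDPC to MN they were Hist1h2af (1.73), Hist1h1b (1.42), Hist1h2aj (1.33), Hist1h1c (1.02), Hist1h2ak (1.00), H2ac20 (0.97), Hist2h2bb (0.91), Hist1h1a (0.90), Hist2h2aa2 (0.72) and Hist2h2be (0.66). Hist1h1c was called at the later step alone.

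With LY3201, the arrays of WT and BERKO moved in opposite directions without overlap in 10 cases (6 of 26 genes in NPC, where 11.5% of all genes did so, and 4 of 26 in MN, where 5.29% did), and the difference was not tested. As the LY3201 difference in BERKO minus that in WT, it was -1.31 for Hist1h1b, -1.18 for Hist1h3g, -1.17 for Hist3h2bb-ps, -0.85 for Hist1h2bk, -0.83 for Hist1h1d and -0.41 for Hist1h4a in NPC. In MN it was -1.58 for Hist1h2ak, -1.37 for Hist1h2aj, -1.32 for Hist1h2af and -1.27 for Hist1h1a. Hist1h1d, Hist1h2bk, Hist1h3g and Hist1h4a in NPC and Hist1h1a in MN were below detection, so these sizes rest on background values.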

How the results depend on the processing

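No paired analysis was possible because the replicate numbers only follow the order of deposit. Fitting the untreated groups alone changed the most: it called 4 genes between genotypes in mDPC (11 with all arrays), 8 in MN (4), 7 for mDPC to MN in WT (14) and 4 for the difference between genotypes of mESC to NPC (0), and reversed Hist1h1a (0.10) and Hist2h2bb (0.12) in mDPC. The compared groups alone gave 7 between genotypes in mDPC, quantile normalization 2 for the difference of mESC to NPC, and no filter or averaged arrays of 1 title number 0 in mESC (1). Leaving out each array gave 0 to 1 between genotypes in mESC, 9 to 13 in NPC, 7 to 11 in mDPC and 3 to 5 in MN. The steps gave 19 to 21, 22 to 23 and 10 to 13 in WT, 15 to 22, 23 to 25 and 12 to 17 in BERKO, and their differences 0 to 2, 13 to 14 and 8 to 11. LY3201 in BERKO stayed at 0 in all 3 stages, and its WT medians ran over 0.037 to 0.298 in NPC, 0.089 to 0.244 in mDPC and 0.077 to 0.297 in MN. Of 125 called gene results, the alternatives other than leaving out arrays gave 1263 of 1342 values with the same direction and call, 77 with the call lost and 2 reversed; leaving out arrays lost 110 of 1117 calls and reversed none. Weak signal is one limit: 13 of the 29 genes never rose above detection.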
